A study of Mus musculus with 11 samples.

Results

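The promoters of 9 Notch effector genes, Hes1, Hes2, Hes3, Hes5, Hes6, Hes7, Hey1, Hey2 and Heyl, were examined for reads from chromatin immunoprecipitation (ChIP) of the zinc finger protein ST18. The genes were chosen by name as the Hes and Hey repressors, not by their counts, though with earlier results of these data known. All 9 had 1 window of 1000 bp each among the 21881 promoter windows of the deposited table. The ChIP group was mouse cells that the labels call TN and brain cell, cultured in vitro and precipitated with an antibody to the HA tag. Its reference was input, genomic DNA from the same cells, whose molecule label nevertheless reads HA ChIP as for the ChIP samples. The sources used here do not give what "TN" stands for, the HA construct or its level, or whether the cells are 1 clone. The labels name 2 ChIP samples and 1 input sample, while the table has 1 ST18 column and 1 input column, so no value below has a replicate error. The series also lists 4 RNA samples with ST18 knockdown and 4 control RNA samples, from sorted cells of electroporated embryonic cortex, which were not analysed here.

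Hes and Hey proteins are basic helix-loop-helix repressors. When Notch is cut at the membrane, its intracellular domain joins the DNA-binding protein RBPJ and switches on Hes1, Hes5, Hes7, Hey1, Hey2 and Heyl, and the Hes and Hey proteins in turn repress proneural genes such as Neurog2, which keeps neural progenitors undifferentiated. Hes2, Hes3 and Hes6 are usually held not to need Notch for their expression, and Hes6 acts against Hes1 and favours neuronal differentiation. ST18 belongs with MYT1 and MYT1L to a zinc finger family that binds DNA with the core AAGTT, and MYT1 and MYT1L are known to repress Notch effectors, Hes1 among them, during neurogenesis.

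The promoter sequences show which of these sites the genes carry near their starts. RefSeq promoter sequences of build GRCm38.p6, from 250 bases before to 50 bases after the start, were matched for 4 of the 9 genes, with 2 starts for Hes6. They are not the counted windows, whose place around the start is not stated and whose build, mm9, differs. Capitals mark matches, on either strand, to AAGTT or AAAGTTT (MYT1 family), TGGGAA or GTGGGAA (RBPJ, the shorter lying within the longer), CACNAG (the N-box bound by Hes proteins), and CACGTG or CACGCG (sites bound by Hes and Hey proteins). Hes5 (chr4:154960673-154960972, plus strand) is shown as the gene with the lowest ratio of ST18 to input reads, Hes7 (chr11:69120203-69120502, plus strand) as the matched gene with the highest, Hey2 (chr10:30842734-30843033, minus strand) as the matched Hey gene, and Hes6 as the matched gene outside the Notch-induced group. The first Hes6 start lies in chr1:91413989-91414288 and the second in chr1:91413173-91413472, both on the minus strand.
Hes5: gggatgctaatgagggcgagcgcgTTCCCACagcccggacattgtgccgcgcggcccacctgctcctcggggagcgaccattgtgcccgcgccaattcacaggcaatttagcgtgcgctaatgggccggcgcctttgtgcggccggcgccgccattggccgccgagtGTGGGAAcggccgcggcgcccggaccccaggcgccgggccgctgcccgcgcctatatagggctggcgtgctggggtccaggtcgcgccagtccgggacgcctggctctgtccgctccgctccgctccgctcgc
Hes7: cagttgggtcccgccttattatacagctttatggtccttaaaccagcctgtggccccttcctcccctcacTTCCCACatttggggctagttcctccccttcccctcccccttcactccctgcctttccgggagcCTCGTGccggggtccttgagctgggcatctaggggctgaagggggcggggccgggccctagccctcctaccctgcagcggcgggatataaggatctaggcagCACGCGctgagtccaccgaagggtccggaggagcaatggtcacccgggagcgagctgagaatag
Hey2: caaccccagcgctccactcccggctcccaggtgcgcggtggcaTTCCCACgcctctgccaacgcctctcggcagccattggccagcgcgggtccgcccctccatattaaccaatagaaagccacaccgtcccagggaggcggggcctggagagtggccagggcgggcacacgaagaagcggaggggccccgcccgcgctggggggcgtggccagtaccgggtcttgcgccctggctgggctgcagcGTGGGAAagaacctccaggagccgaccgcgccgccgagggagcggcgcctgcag
Hes6, first start: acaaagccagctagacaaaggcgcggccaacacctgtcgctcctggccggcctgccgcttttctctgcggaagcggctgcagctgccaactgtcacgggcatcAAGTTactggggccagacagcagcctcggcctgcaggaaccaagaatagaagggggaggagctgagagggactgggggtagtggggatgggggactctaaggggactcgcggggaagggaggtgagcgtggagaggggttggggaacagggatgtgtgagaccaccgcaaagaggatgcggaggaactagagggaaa
Hes6, second start: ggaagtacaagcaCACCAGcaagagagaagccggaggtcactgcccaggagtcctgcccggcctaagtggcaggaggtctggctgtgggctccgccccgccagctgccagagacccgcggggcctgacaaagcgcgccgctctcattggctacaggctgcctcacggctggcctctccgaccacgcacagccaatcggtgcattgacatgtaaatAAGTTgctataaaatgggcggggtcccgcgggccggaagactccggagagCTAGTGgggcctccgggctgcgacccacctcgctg

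The RBPJ motif GTGGGAA was present in all 3 Notch-induced genes with a sequence, with 2 matches in Hes5, 1 in Hes7 and 2 in Hey2, and in neither Hes6 promoter. It was found in 6.38% of all 32851 RefSeq promoters of the same length. In Hes5 the matches began at -226 and -83 from the start, in Hes7 at -180 and in Hey2 at -207 and -4. The MYT1 family core AAGTT was absent from these stretches of Hes5, Hes7 and Hey2 and present once in each Hes6 promoter, at -147 and -35. This core is common, being held by 39.3% of all promoters, and the longer AAAGTTT, held by 4.74%, was in none of the 5 sequences. The N-box CACNAG (42.5% of all promoters) had 2 matches in the second Hes6 promoter and 1 in Hes7, CACGCG (9.27%) matched once, in Hes7, and CACGTG (7.15%) matched nowhere. A match is a run of letters and was not tested as a bound site. The 5 sequences were rich in G and C, at 72.7% in Hes5, 72.0% in Hey2, 63.0% in Hes7 and 62.0% and 65.0% in Hes6, against a median of 52.7% over all promoters. Hes5 held 41 CpG pairs in its 300 bases, more than 96.5% of promoters, against a median of 7.

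The first comparison asked whether ST18 reads were enriched over input at these promoters. The ST18 column held 438960 reads over all windows and the input column 160443, a ratio of 2.74, and the 9 members together held 202 ST18 reads against 71 input reads. Their summed ratio was 1.04-fold that of all promoters (exact 95% binomial interval 0.790 to 1.38), so no enrichment of the group was detectable at this depth. Single members were spread on either side, with 4 folds above 1 and 5 below. These intervals treat reads as independent molecules and cover counting error only, and they do not contain the spread between ChIP experiments.

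Hes1, the effector that maintains radial glia, held 20 ST18 reads against 2 input reads, 3.66-fold the ratio of all promoters (exact 95% interval 0.888 to 32.3). Hey1, a Notch-induced repressor also expressed in cortical progenitors, held 27 ST18 reads against 3 input reads, 3.29-fold (1.01 to 16.9). Hes7, the oscillating repressor of the somite clock, held 28 ST18 reads against 5 input reads, 2.05-fold (0.780 to 6.79). These 3 promoters stood at the upper end, and the interval of Hey1 alone lay above 1, by a narrow margin.

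Heyl, a Hey repressor best known from vascular smooth muscle, held 16 ST18 reads against 4 input reads, 1.46-fold (0.472 to 6.01). Hes2 held 24 ST18 reads against 9 input reads, 0.975-fold (0.437 to 2.38). Hey2, which acts in heart and vessel development, held 17 ST18 reads against 7 input reads, 0.888-fold (0.350 to 2.53). The middle of the order was thus close to the ratio of all promoters, with intervals that reached more than 2-fold to the upper side.

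Hes6, the member that opposes Hes1, held 24 ST18 reads against 11 input reads, 0.797-fold (0.376 to 1.80). Hes3, which is known from midbrain and hindbrain progenitors, held 27 ST18 reads against 14 input reads, 0.705-fold (0.357 to 1.45). Hes5, which with Hes1 is the main Notch effector of the embryonic cortex, held 19 ST18 reads against 16 input reads, 0.434-fold (0.211 to 0.902). Hes5 was the only member whose interval lay below 1, so the pair of best known Notch effectors of the cortex, Hes1 and Hes5, lay at opposite ends of the order.

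**Figure D1:**
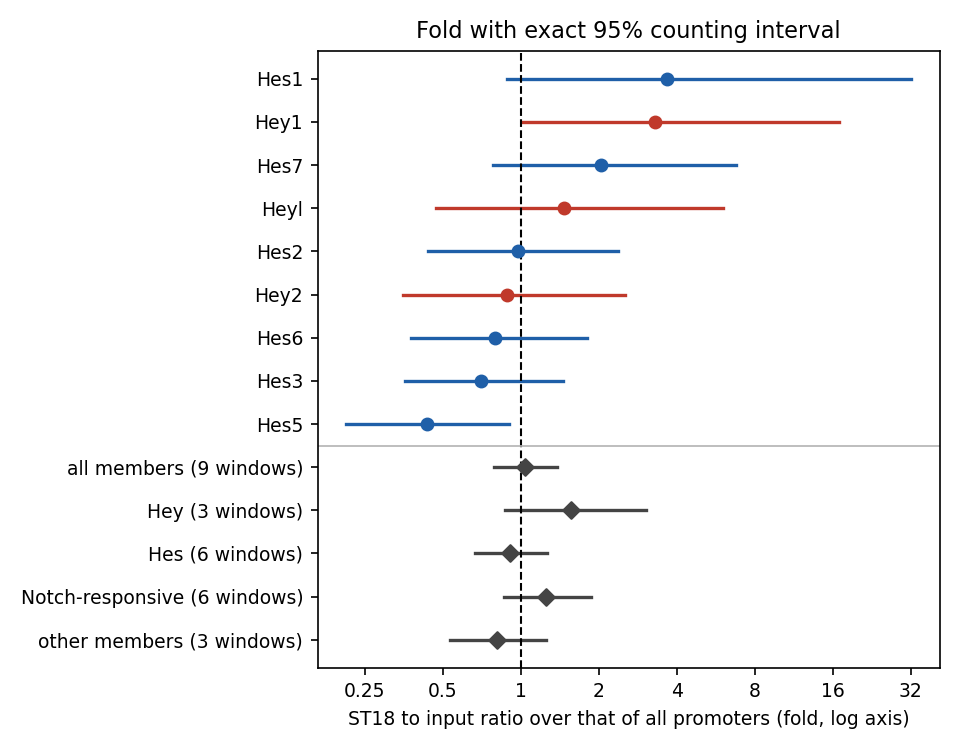
Each point is the ratio of ST18 to input reads in 1 promoter window, or summed over a group of windows (diamonds), divided by the ratio of all promoters, on a log axis, with Hes genes in blue, Hey genes in red and bars for the exact 95% counting interval. The members run from Hes1 at 3.66-fold to Hes5 at 0.434-fold, and 7 of the 9 bars cross 1.

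The number of members whose interval excluded 1 is small and rests on the edge of what the reads allow. Of the 9 windows 1 had an interval above 1 (11.1%), against 2.43% of the 21358 windows with reads, and 1 had an interval below 1 (11.1%), against 3.32%. With 9 windows, 1 window is the smallest count above 0 that could be seen. At the 30 reads that Hey1 held in total, 27 ST18 reads is the lowest count whose interval lies above 1, and Hey1 had 27. At the 35 reads that Hes5 held in total, 19 ST18 reads is the highest count whose interval lies below 1, and Hes5 had 19. One read placed otherwise would therefore have moved either window across the line. With a two-sided exact binomial test and Benjamini-Hochberg adjustment over the windows with reads, none of the 9 was called (lowest adjusted p = 0.555, for Hes5). Of all 21358 windows with reads, 10 were called at 0.05, so the lack of a call says little about these members. Such a test sets the reads of 1 library against those of another and does not compare conditions.

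At the members' depth only large observed folds could give an interval that excluded 1. For an interval above 1, the needed observed fold ran from 2.63 at the 41 reads of Hes3 to 8.41 at the 24 reads of Hey2. For an interval below 1 it ran from 0.467 at Hes3 to 0.366 at the 20 reads of Heyl, the 22 of Hes1 and the 24 of Hey2. An observed doubling of the ratio would therefore not have given an interval above 1 at any of the 9 promoters. How often a true doubling would have been seen was not tested.

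The spread among the members lay in the input column more than in the ST18 column. ST18 reads ran from 16 in Heyl to 28 in Hes7 with a median of 24, a 1.75-fold range, against a median of 20 (interquartile range 14 to 26) over all windows. Input reads ran from 2 in Hes1 to 16 in Hes5 with a median of 7, an 8-fold range, against a median of 7 (5 to 10) over all windows. The variance over the mean was 0.926 for the 9 ST18 counts and 3.12 for the 9 input counts. The same value over all windows is not given, so whether the members stand out in it was not tested. Input counts were also the lower, and counting error widens the fold range of lower counts. Hes1 had an input count that 94.1% of windows reached or passed, while Hes5 had one that only 1.59% of windows reached, and their ST18 counts, 20 and 19, were nearly equal. From the highest fold to the lowest, the input counts were 2, 3, 5, 4, 9, 7, 11, 14 and 16. The order of folds was thus close to the order of input reads turned round. Input reads are the denominator of each fold, so with ST18 counts of only 16 to 28 this follows largely from the arithmetic. Since every fold shares the 1 input library, the part of that library in the order was not tested.

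**Figure D2:**
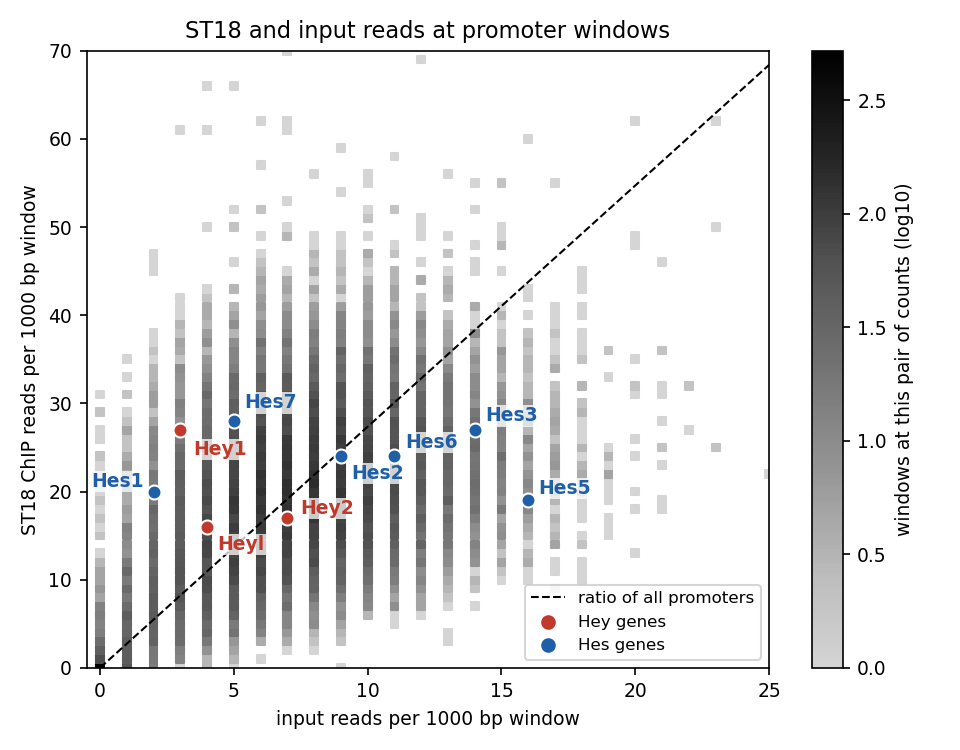
The vertical axis gives ST18 ChIP reads and the horizontal axis input reads per 1000 bp window, with grey squares shaded by the log10 number of windows at each pair of counts and the dashed line at the ratio of all promoters, 2.74. The members keep to a band of 16 to 28 ST18 reads while their input reads run from 2 to 16. The plot leaves out 24 of the 21881 windows, which lie beyond its axes.

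The deposited log2 enrichment, which adds a pseudocount of 16 to both scaled counts and so draws small counts towards 0, gave a narrower range. It was 0.50 for Hey1, 0.42 for Hes1, 0.38 for Hes7, 0.17 for Heyl, 0.04 for Hes2, -0.01 for Hey2, -0.07 for Hes6, -0.15 for Hes3 and -0.43 for Hes5. On this scale Hey1 passed Hes1, since it had more reads, and ranked 535 among all windows, above 97.5% of them. Hes1 ranked 1080 and Hes7 ranked 1482 (above 93.0%), whereas Hes5 ranked 21527, above 1.59%. Hes2 lay at the median of all windows, 0.04, and 4 members lay within the interquartile range, -0.10 to 0.19. No member reached 0.58, about 1.5-fold, where 1.15% of all windows lay, and none reached -0.58, where 0.219% lay. The scale places Hes1, Hey1 and Hes7 in the upper tail and Hes5 in the lower tail of promoters, short of both limits.

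**Figure D3:**
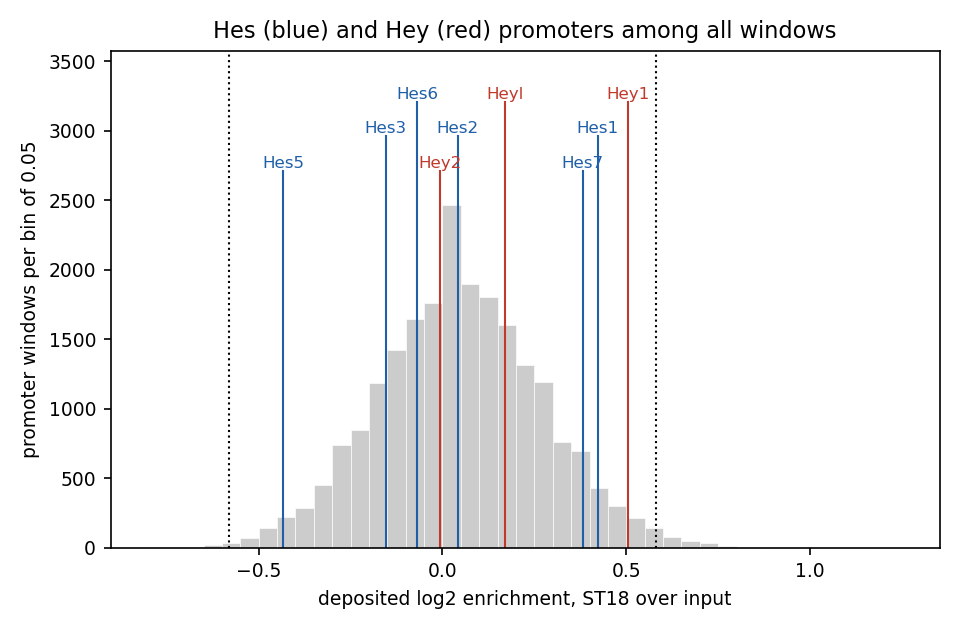
Grey bars count promoter windows per 0.05 of deposited log2 enrichment, lines mark the 6 Hes windows in blue and the 3 Hey windows in red, and dotted lines mark -0.58 and 0.58. All 9 members lie between the dotted lines, from Hes5 at -0.43 to Hey1 at 0.50.

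The order was compared member by member, through the ratio of their ratios with an exact conditional interval. None of the 8 neighbouring pairs in the order could be told apart. From the top, Hes1 stood at 1.11 times Hey1 (0.115 to 14.4), and at the bottom Hes3 stood at 1.62 times Hes5 (0.582 to 4.54). Of all 36 pairs, 4 had an interval that excluded 1, and 3 of these set Hes5 against one of the 3 highest promoters. Hes1 stood at 8.42 times Hes5 (1.58 to 82.4), Hey1 at 7.58 times (1.76 to 44.8) and Hes7 at 4.72 times (1.33 to 18.9). The other pair was Hey1 with Hes3, at 4.67 times (1.10 to 27.6). Pairs of the highest with the lowest members were picked by the same counts, which widens their difference, and no p-value is given for them. The 36 pairs share windows and are not independent, and 3 of the 4 rest on the same Hes5 window. The share of pairs of other windows with an interval that excludes 1 is not given.

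The second comparison set the 3 Hey promoters against the 6 Hes promoters. The Hey windows held 60 ST18 reads against 14 input reads, 1.57-fold the ratio of all promoters (0.865 to 3.04). The Hes windows held 142 ST18 reads against 57 input reads, 0.911-fold (0.665 to 1.26). The Hey ratio was 1.72 times the Hes ratio (exact conditional interval 0.863 to 3.60), a difference not detectable at this depth. It rested on single members: without Hey1 it was 1.20 (0.547 to 2.83), and without Hey2 it was 2.47 (1.02 to 6.86).

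The third comparison set the 6 genes induced by Notch (Hes1, Hes5, Hes7, Hey1, Hey2 and Heyl) against Hes2, Hes3 and Hes6. The Notch-induced windows held 127 ST18 reads against 37 input reads, 1.25-fold (0.864 to 1.86). The others held 75 ST18 reads against 34 input reads, 0.806-fold (0.531 to 1.25). The Notch-induced ratio was 1.56 times the other (0.867 to 2.78), again not detectable at this depth. The Notch-induced group included both ends of the order, whereas Hes2, Hes3 and Hes6 lay between 0.705-fold and 0.975-fold. It also had more windows, 6 against 3, with 20 to 35 reads each against 33 to 41. More windows with fewer reads spread wider through counting error, and a difference in spread was not tested. Without Hes5 the Notch-induced ratio was 2.33 times the other (1.20 to 4.57), a value that leaves out the one low member after its count was seen.

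Each member was also set against the promoters around it. For this the 5 nearest genes on either side with a window, in RefSeq order, were summed, a comparison chosen after the data were seen. The 10 promoters around Hes5 held 266 ST18 reads against 98 input reads, 0.992-fold the ratio of all promoters (0.784 to 1.26), and Hes5 stood at 0.438 times these neighbours (exact conditional interval 0.204 to 0.951). Of the 10, 1 had as many input reads as Hes5 or more. The genes next to Hes5 differed, with 20 ST18 reads against 14 input reads at Pank4 (log2 enrichment -0.32) and 25 against 7 at Tnfrsf14 (0.18). The stretch around Hes5 as a whole thus had the ratio of all promoters.

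The promoters around Hes1 held 263 ST18 reads against 80 input reads (1.20-fold, 0.932 to 1.56), and each of the 10 had more input reads than Hes1. Hes1 stood at 3.04 times its neighbours (0.712 to 27.3), Hey1 at 2.70 times (0.794 to 14.3) and Hes7 at 2.22 times (0.817 to 7.54), so the interval of Hey1 no longer excluded 1. Hes3 stood at 0.566 times its neighbours (0.271 to 1.23) and Hes6 at 0.696 times (0.311 to 1.65). Hey2 was the only member in a stretch that itself stood apart: its neighbours held 168 ST18 reads against 107 input reads, 0.574-fold (0.448 to 0.738). Against them Hey2 stood at 1.55 times (0.585 to 4.56), where it had been at 0.888-fold against all promoters. Heyl stood at 1.53 times its neighbours (0.471 to 6.47) and Hes2 at 1.001 times (0.431 to 2.54).

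**Figure D4:**
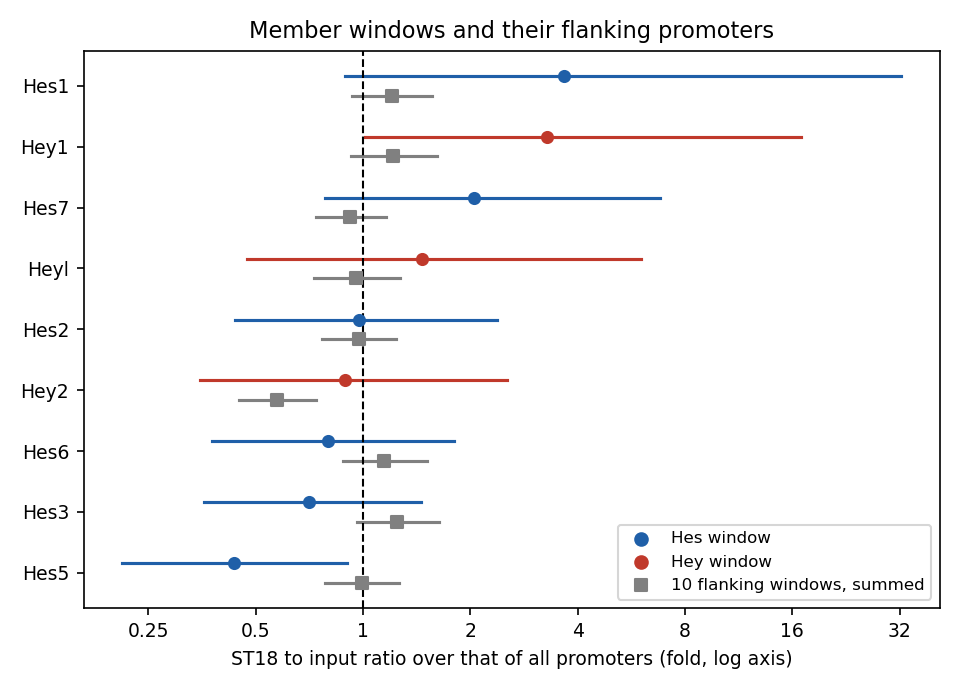
For each member the upper point is its own ratio of ST18 to input reads and the lower grey square that of its 10 flanking promoters summed, both over the ratio of all promoters on a log axis, with exact 95% counting intervals as bars. The flanking promoters lie between 0.574-fold around Hey2 and 1.25-fold around Hes3, a narrower range than that of the members. Each square sums 10 windows while each member is 1 window, so counting error alone makes the range of the squares narrower. Whether members vary more than single flanking windows was not tested.

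Base composition was set beside these values. The 12270 windows with a single RefSeq promoter were put into 4 groups by G and C content. The group with the most, 65.0% or more, had 1.06-fold the ratio of all promoters, and the group with the least, 48.0% or less, had 0.901-fold. Hes5 and Hey2, at 72.7% and 72.0%, have the content of the richest group, while their own folds were 0.434 and 0.888. The part of base composition in the members' ratios was not tested.

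The rest of the Notch pathway was described from 9 lists with 69 genes, all of them found in the table. None of the 69 promoters reached a log2 enrichment of 0.58, where 1.15% of all windows lay, or -0.58, where 0.219% lay. With shares this low, a count of 0 among 69 says little about the pathway. An interval above 1 was seen at 1 promoter (1.45%, against 2.43% of windows with reads) and below 1 at 4 (5.80%, against 3.32%). The median log2 enrichment was 0.04 for the 9 members, 0.11 for the 69 pathway genes and 0.04 for all windows. Nrarp, a Notch target that feeds back on the Notch intracellular domain, was the 1 promoter above, with 37 ST18 reads against 5 input reads (log2 0.56, 2.70-fold, 1.06 to 8.82).

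Of the genes upstream of the effectors, all 5 ligand promoters lay above the median of all windows, from Jag1 at 0.34 to Jag2 at 0.15, and summed to 132 ST18 reads against 33 input reads (1.46-fold, 0.992 to 2.21). The 4 receptors ran from Notch4 at 0.34 to Notch3 at 0.01 (summed fold 1.21, 0.806 to 1.88). The list of the Notch nuclear complex and related genes ran from Rbpjl at 0.40 to Maml3 at -0.13. Rbpj itself lay at -0.02 (19 ST18 reads against 8 input reads). Of the 27 genes of Notch processing and modulation, 17 lay above the median, and the list ran from Neurl1a at 0.46 to Numbl at -0.38, which with 8 ST18 reads against 9 input reads had an interval below 1 (0.325-fold, 0.109 to 0.949).

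The Groucho family genes, among them corepressors that Hes proteins recruit to silence their targets, had a median log2 enrichment of -0.14. The median of all windows was 0.04. Their 6 promoters held 118 ST18 reads against 69 input reads, 0.625-fold (0.461 to 0.854), and 1 of the 6 lay above the median of all windows. No other of the 9 lists had a summed interval that excluded 1, and the intervals were not adjusted for the number of lists. The list stands out by its own counts, and its sum was not taken without its low members Tle1 and Tle2. Tle2 was lowest at -0.46 (18 ST18 reads against 16 input reads, 0.411-fold, 0.198 to 0.862), Tle1 followed at -0.42 (16 against 14 reads, 0.418-fold, 0.191 to 0.924), and Tle3 was highest at 0.08. Tle1 and Tle2, 2 of the 6, had an interval below 1, against 3.32% of windows with reads, and the intervals of Tle3 (1.10-fold), Tle4 (0.783-fold), Tle6 (0.627-fold) and Aes (0.822-fold) included 1. As at Hes5, the low ratios of Tle1 and Tle2 went with ordinary ST18 counts and high input counts. The related repressors Helt, Bhlhe40 and Bhlhe41 and the Id genes ran from Helt at 0.48 to Id4 at -0.35 (5 ST18 reads against 7 input reads, 0.261-fold, 0.0653 to 0.956), the proneural targets of Hes proteins down to Neurod4 at -0.29, and the remaining Notch targets from Nrarp to Fabp7 at 0.09. In the ST18 family, Myt1 was highest at 0.40 and Myt1l lowest at 0.09, and St18 itself lay at 0.09, between Hes2 and Heyl.

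**Figure D5:**
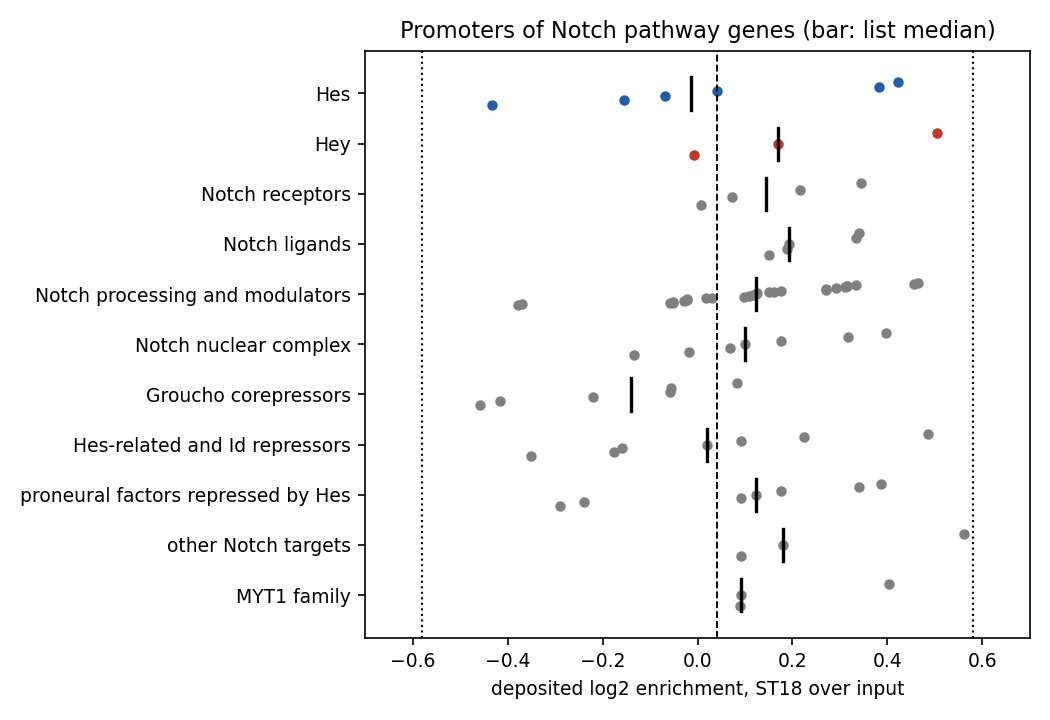
Each point is the deposited log2 enrichment of 1 promoter, spread vertically within its list for legibility, with a black bar at the list median, a dashed line at the median of all windows (0.04) and dotted lines at -0.58 and 0.58. The Hes list runs from -0.43 to 0.42, and no gene lies beyond a dotted line.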

How the data were processed

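ChIP and input reads were given as the authors' deposited whole-number counts in windows of 1000 bp, 1 per gene symbol. The submitters' processing notes name Bowtie, MACS2 2.0.10.20120913 and build mm9 without roles. From those counts, the log2 enrichment the authors deposited was obtained again within 1e-06 in all 21881 windows, with an ST18 scaling of 0.406 and a pseudocount of 16. This scaling sets folds 1.11-fold higher (0.15 on the log2 scale) than the promoter totals used here. Whether the ST18 column pools both ChIP samples is not stated. The peak list was not used, since the table has no coordinates.

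Folds carry exact Clopper-Pearson 95% intervals, and ratios of ratios the exact conditional interval of the odds ratio (SciPy 1.17.1). The intervals and the exact binomial test were tested on simulated data. Those counts were drawn from the same binomial model that the intervals and test assume. The simulation therefore checks the computation and not the spread between real libraries. Windows without reads were left out of both. The genes named were every member, the ST18 family and, in each pathway list, the highest and lowest gene and any gene past 0.58, except 1 gene that is not reported here. Rbpj, Bhlhe40 and Bhlhe41, the Groucho genes between the ends of their list, Pank4 and Tnfrsf14 were named after their values were seen. The members and lists were chosen with earlier results of these data known.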

Additional observations from a re-analysis of the deposited data

How the results depend on the processing

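Of the 9 member promoters, 0 passed a log2 enrichment of 0.58 in either direction, and this became 3 with a pseudocount of 8 (Hey1, Hes1 and, downwards, Hes5) and 5 with a pseudocount of 1 (also Hes7 and Heyl). Smaller pseudocounts widen the log2 range by construction, and over all windows 6.98% and 24.1% then lay above 0.58 and 2.60% and 13.1% below -0.58. It stayed 0 with scaling to the promoter totals and with centring. It was also 0 at thresholds of 1 and 1.5 and with more than 5 input reads. With 0 members past 0.58, a higher threshold or a filter that only removes members could give nothing else. Over all windows the highest value was 1.21 and the lowest -0.76, so no window could pass 1.5. For the promoter totals, centring and the input filter no share of all windows is given. The 2 members with an interval off 1, Hey1 and Hes5, became 0 with 99% intervals, 0 by the adjusted exact binomial test, 1 with the deposited scaling (Hey1 kept, Hes5 at 0.482-fold, 0.235 to 1.001, with 3.95% of windows then above and 2.13% below) and 1 with more than 5 input reads (Hey1 left out). With the median ratio of windows as the level of 1 it stayed 2, with 2.26% of windows then above and 3.32% below. The adjusted test called 10 of all windows with reads. The shares of all windows with 99% intervals and with more than 5 input reads are not given. Those changes therefore say nothing about these members in particular. The summed fold of the 9 members lay between 0.941 and 1.22 when 1 member was left out, with 1 inside each interval. The 69 pathway genes past 0.58 in either direction numbered 0, where 1.15% of all windows lay above and 0.219% below. Of the 69, 5 had an interval off 1, 1 above and 4 below, against 2.43% and 3.32% of windows with reads. Of the 5 sequences 2 held AAGTT and 0 held AAAGTTT.

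The depth of 20 to 41 reads per member limits all of these values. Leaving out a replicate was not possible with 1 ST18 column and 1 input column. Peaks were not set against these promoters. No paired analysis was possible because the ST18 column has no number and no RNA library was used here.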
